A study of Catharus ustulatus with 19 samples.

Results

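Swainson's thrushes held in captivity, of the migratory species Catharus ustulatus, were compared by the labelled hour after lights on at which brain tissue was taken. The early birds were those taken at most 3.2 hours after lights on (7 birds) and the late birds those taken at 6 hours or more (7 birds), so that 14 of the 19 birds of the series entered the comparison; the other 5 lay between these limits and served as a check of intermediate values. The tissue was a block of brain holding the hypothalamus and the optic chiasma. The birds had lived in captivity for over 1 year under day lengths changed every week, and all 19 shared this history. The labels name no other treatment and give no age. The submitters had set aside 1 more bird, migratory and inland, as an outlier, and it was not analysed here.

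The 7 early birds were taken at 2.5, 2.52, 2.65, 2.7, 2.87, 3.03 and 3.13 hours after lights on. The 7 late birds were taken at 6.03, 6.05, 6.533, 7.07, 7.55, 7.65 and 8.57 hours, a span of 2.54 hours against 0.63 in the early birds. Both sets held 3 inland and 4 coastal birds (the ecotypes of the species), 3 non-migratory and 4 migratory birds, and 3 birds taken in August and 4 in October 2011. They were not balanced for sex, with 1 female among the early birds (replicate 3, a non-migratory coastal bird taken at 2.65 hours) and 2 among the late birds (replicate 5, non-migratory coastal, at 7.55 hours, and replicate 7, migratory coastal, at 8.57 hours). Nor were they balanced for the day: on 7 August 1 early and 3 late birds were taken, on 8 August 2 early birds and 0 late birds, on 3 October 2 and 1, and on 4 October 2 and 3. The 5 birds between were males taken at 3.97, 4.2, 4.6, 5.07 and 5.2 hours, 3 inland and 2 coastal, and 4 of them non-migratory. By day, 1 was taken on 7 August, 3 on 8 August, 1 on 3 October and 0 on 4 October. The hours on either side of the limits were thus 3.13 and 3.97 at the lower limit and 5.2 and 6.03 at the upper.

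As background, the hypothalamus of birds holds cell groups of the circadian system, which keeps time in the day with help from the pineal gland and the retina. In this system, clock genes switch their own transcription off after a delay, so that the RNA of many genes rises and falls within each day. Light, waking, feeding and activity after lights on also change transcription in the brain. The hour at which tissue is taken is therefore a known source of variation between brain samples.

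Values were deposited for 11727 genes on a logarithmic scale that is read here as log2. The table does not pair its ENSFALG identifiers with gene names, and none of them matched the RefSeq table of the species. ENSFALG is the Ensembl prefix for genes of the collared flycatcher, another songbird, and no annotation of that species was used here. Clock genes and markers of the tissue were therefore not looked up, and genes appear below by identifier. The sequencing depth is unknown, because the columns share 1 distribution of values, with a median of 28.05 in each. A level can therefore be read only against the rest of that bird's genes. In such a block of tissue, fewer cells of a type and less RNA per cell cannot be told apart.

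Over all genes, the early and late birds did not form separate sets. For any pair of birds, the SD over genes of their difference was taken. Its median was 0.42 log2 in the 21 pairs of early birds, 0.45 in the 21 pairs of late birds and 0.44 in the 49 pairs of an early with a late bird. On the first principal component of the 14 birds (17.4% of the variance) the late birds scored 5.45 ± 15.9 and the early birds -5.45 ± 11 (SD, n = 7 each), and a two-sided exact permutation test did not tell them apart (p = 0.157, or 0.273 adjusted over the 3 components tested). The next components (16.9% and 11.5%) gave p-values of 0.781 and 0.182 in the same exact permutation test, adjusted 0.781 and 0.273. The late birds were the more widely spread on the first component. Its highest score was that of late replicate 4 (28.2), and the highest on the second was that of late replicate 1 (27.9). On the second component all inland birds, late replicate 1 among them, scored above all coastal birds (0.96 or more against -4.24 or less). The early-late calls and the counts of genes without overlap are given below with and without late replicates 1 and 4.

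The first question was which genes differed between early and late birds once ecotype, status and sex were allowed for. In 4 genes (0.0341% of those tested) the late birds were lower, at an adjusted p under 0.05 in limma, a linear model with moderated errors, and no gene was higher. Without adjustment, 1167 genes (9.95%) had a p under 0.05, nearly evenly split into 590 lower (5.03%) and 577 higher (4.92%) in late birds. At an adjusted p under 0.1 there were 9 lower genes (0.0767%) and 3 higher (0.0256%). Over all genes the difference had a median of 0.00 log2 and a median size of 0.08 log2. Its 95% interval lay within ± 0.5 log2 in 9553 genes (81.5%) and within ± 1 log2 in 11366 genes (96.9%), so that for most genes a difference of 2-fold or more between these hours lay outside the interval.

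**Figure D1:**
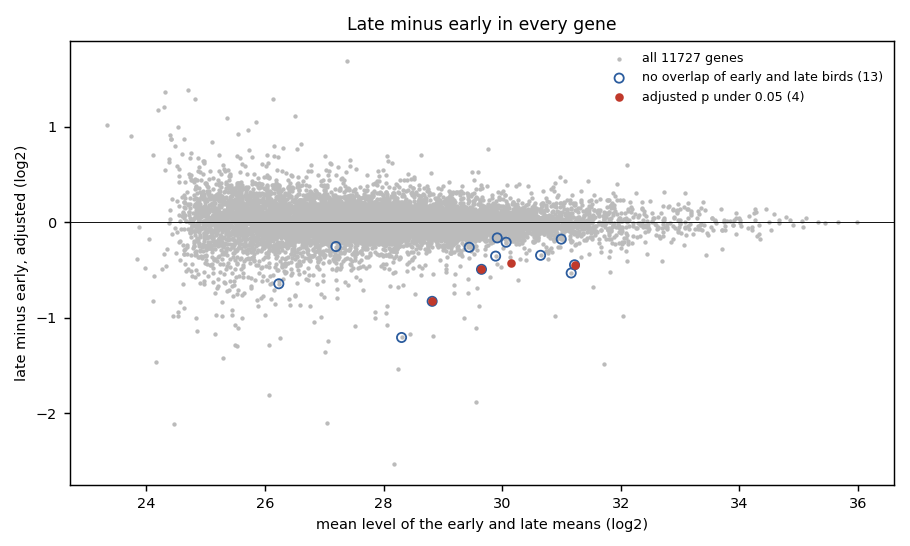
Difference between late and early birds (vertical axis, log2, adjusted for ecotype, status and sex) against the mean level (horizontal axis, log2) of each of the 11727 genes, shown as grey points. The 4 genes at an adjusted p under 0.05 (red) and the 13 genes without overlap between early and late birds (blue rings) all lie below 0.

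ENSFALG00000004057 had the smallest p-value. The 7 early birds stood at 29.13 to 29.43 log2 (median 29.21) and the 7 late birds at 27.90 to 28.80 (median 28.24). No early bird overlapped a late one, and the closest birds of the sets were 0.34 log2 apart. The late birds were lower by an estimate of -0.83 ± 0.10 log2 (SE, 95% interval -1.04 to -0.61, 1.77-fold, limma adjusted p = 0.0227). The late birds were spread more widely (SD 0.32, n = 7) than the early birds (SD 0.10, n = 7).

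ENSFALG00000010621 stood at 31.25 to 31.58 log2 (median 31.43) in early birds and at 30.92 to 31.13 (median 30.99) in late birds. The sets did not overlap here either, and both were narrow. The difference was -0.44 ± 0.06 log2 (SE, 1.36-fold, limma adjusted p = 0.0296).

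ENSFALG00000011294 stood at 29.68 to 30.03 log2 (median 29.96) in early birds and at 29.30 to 29.55 (median 29.38) in late birds, again without overlap. The difference was -0.49 ± 0.07 log2 (SE, 1.41-fold, limma adjusted p = 0.0341).

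ENSFALG00000009205 stood at 30.20 to 30.56 log2 (median 30.37) in early birds and at 29.61 to 30.30 (median 29.81) in late birds. Here the sets overlapped: late replicates 2 and 4, at 30.26 and 30.30, lay among the early birds, while the other 5 late birds lay below all early birds. The difference was -0.42 ± 0.06 log2 with the covariates (SE, 1.34-fold, limma adjusted p = 0.0296) and -0.49 log2 without them, where it was not called (limma adjusted p = 0.304).

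Of the genes higher in late birds, none passed in this fit, though both genes described next passed under other settings. ENSFALG00000004634 stood at 27.96 to 28.39 log2 (median 28.21) in early birds and at 28.22 to 28.99 (median 28.69) in late birds. Late replicates 4 and 5, at 28.32 and 28.22, fell within the early range and the other 5 lay above it. Its difference was 0.51 ± 0.08 log2 (SE, limma adjusted p = 0.0619). ENSFALG00000004539 stood at 25.51 to 27.21 log2 (median 25.85) in early and at 26.31 to 27.68 (median 27.18) in late birds. Early replicate 2, at 27.21, was the only early bird above the lowest late bird. The difference was 1.12 ± 0.19 log2 (SE, 2.17-fold, limma adjusted p = 0.0701). ENSFALG00000004634 passed with the month in place of status (limma adjusted p = 0.0347), with 3 hour classes in all 19 birds (0.0283), with a slope over all 19 birds (0.0416), with weighted birds (0.0391) and without late replicate 4 (0.0202). ENSFALG00000004539 passed with a slope over the 14 birds (limma adjusted p = 0.0296) and with weighted birds (0.0344). The split into 4 lower and 0 higher genes thus depended on the setting.

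Without covariates, an exact two-sided permutation test over the 3432 ways to divide the 14 birds gave p = 0.000583 for each of the 3 genes with no overlap, the smallest p it allows. It gave p = 0.00408 for ENSFALG00000009205, 0.00466 for ENSFALG00000004634 and 0.00699 for ENSFALG00000004539 (exact permutation test). These genes were picked for their difference in the same birds, so these values describe the separation and add no evidence to it.

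**Figure D2:**
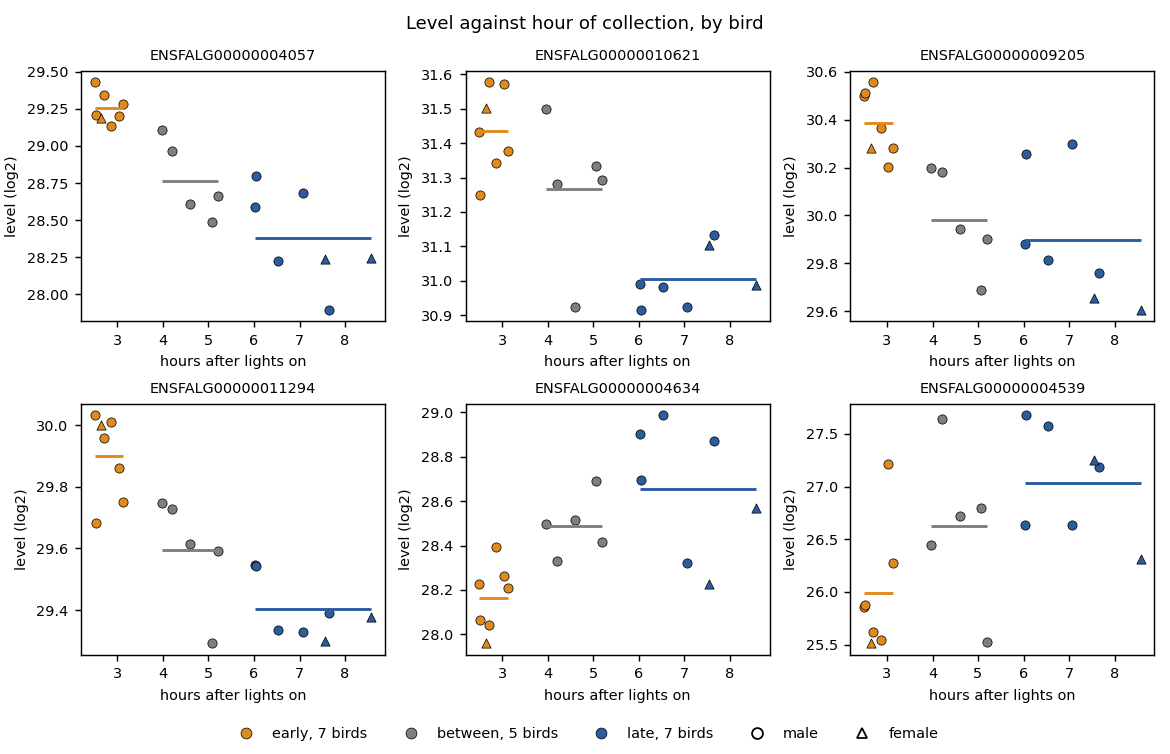
Level (log2) of the 4 genes called lower in late birds and of the 2 genes with the smallest p-values among those higher, for each of the 19 birds against its hour after lights on; bars are plain group means, circles males and triangles females. In ENSFALG00000004057 the early birds lie at 29.13 or above, the late birds at 28.80 or below and the 5 birds between at 28.48 to 29.11.

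The calls changed with the birds and covariates in the fit. With 1 bird left out at a time, the 14 fits called between 0 and 5 genes. No gene was called without early replicate 2 or 3 or late replicate 1, 5 or 7, and these 5 birds included all 3 females. Without late replicate 2, 1 gene was called, and without late replicate 3, 2 were. In the males alone no gene was called. Without both late replicates 1 and 4, the birds with the highest scores on the second and first principal components, 0 genes were called. ENSFALG00000004057 was called in 9 of the 14 fits (adjusted p from 0.00736 to 0.113) with a difference between -0.89 and -0.75 log2. The other 3 were called in 3 to 5 of the 14, and the size of their differences moved little, between -0.47 and -0.41 log2 for ENSFALG00000010621, -0.46 and -0.37 for ENSFALG00000009205, and -0.53 and -0.45 for ENSFALG00000011294. In males the differences of the 4 were -0.81, -0.45, -0.36 and -0.46 log2 in the order ENSFALG00000004057, ENSFALG00000010621, ENSFALG00000009205 and ENSFALG00000011294 (limma adjusted p from 0.121 to 0.185). With the day of collection in place of status no gene was called, and with the month added 1 was, while the differences stayed of similar size. In the same order of genes they were -0.73, -0.42, -0.37 and -0.50 log2 with the day and -0.82, -0.45, -0.42 and -0.49 with the month added. With late birds taken from 7 hours on, 2 genes were called higher and 2 lower, and of the 4 genes only ENSFALG00000004057 was among them (limma adjusted p = 0.0428, the others 0.278 to 0.351).

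In 13 genes (0.111%) every late bird lay below every early bird, and in no gene (0%) did every late bird lie above every early bird. These counts use the levels as deposited, with no covariate. With the 14 birds divided at random into 7 and 7, 0.058% of genes would show no overlap, both directions together. Genes are not independent of each other, so this share is no test. Once the levels were adjusted for ecotype, status and sex, the counts were 49 lower (0.418%) and 42 higher (0.358%), and 12 of the 13 remained among them. The adjustment was fitted in these same birds with the hour class kept in the model. It narrows the spread within each class and so favours separation in both directions, and these counts are not like those of the deposited levels. In males, where fewer birds have to be separated and chance separates more genes, the counts were 57 lower and 18 higher. With 1 bird left out they ran from 14 to 23 lower and from 0 to 11 higher. The lower count was 22 without early replicate 4, 20 without early replicate 6 or late replicate 4 and 23 without late replicate 7, and the 11 higher genes came without early replicate 4. Without late replicates 1 and 4 they were 22 and 9. Leaving birds out, as in the males alone, can only keep or add genes without overlap. None of these counts could therefore fall below those of all 14 birds, and a rise does not show dependence on the birds left out. The share of 0.058% holds for 7 against 7 birds only. Chance gives a larger share in each smaller set, which was not worked out, so the counts of smaller sets are not read as an excess. All 13 had an unadjusted p under 0.05 with the covariates, but only 3 were called. The 13 were picked for their separation in the same birds, so the small unadjusted p-values add no evidence. The differences ran from -1.20 to -0.16 log2 with a median of -0.35. The distance between the lowest early and the highest late bird was 0.34 log2 in ENSFALG00000004057 and had a median of 0.04 log2. Of the 13 genes, 9 were among the 2932 genes with the highest levels.

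**Figure D3:**
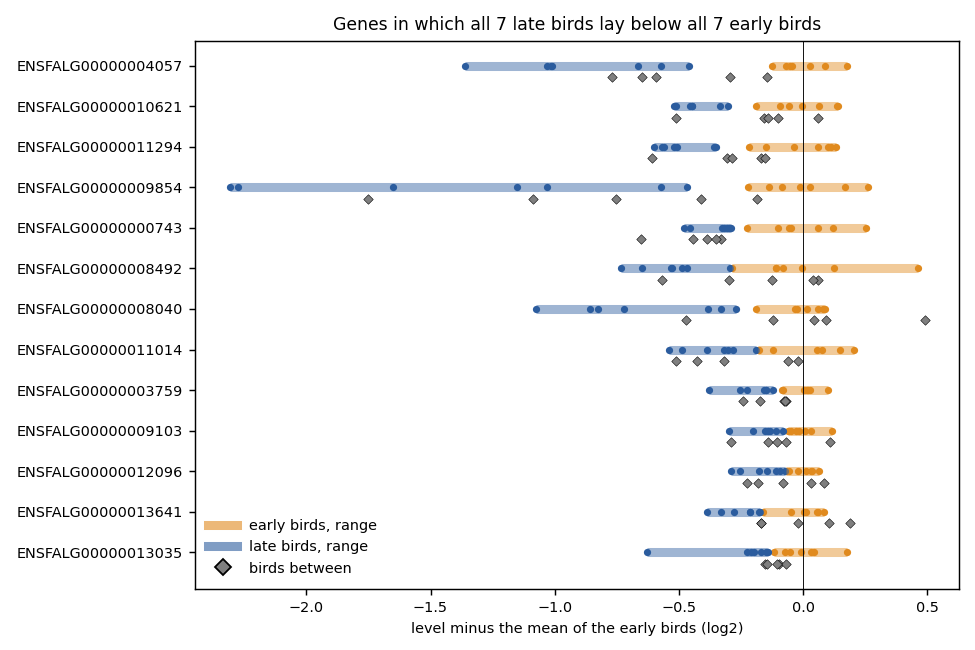
Levels of the 13 genes without overlap, as the difference from the mean of the early birds (log2, horizontal axis): orange bars and points for the 7 early birds, blue for the 7 late birds and grey diamonds for the 5 birds between, which did not enter the choice of genes. The distance between the sets is widest in ENSFALG00000004057 (0.34 log2), and the birds between fall on the early side in some genes and on the late side in others.

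The 5 birds taken between 3.2 and 6 hours were not used for these calls, so where they lay is a separate measurement. In all 4 called genes their mean, set against what the model of the 14 birds gives for birds of their ecotype, status and sex, fell between the early and the late level. It lay 0.62 of the way from early to late in ENSFALG00000004057, 0.42 in ENSFALG00000010621, 0.67 in ENSFALG00000011294 and 0.98 in ENSFALG00000009205. Over all 11727 genes the mean of these birds fell between the levels in 31%, before the early level in 41% and past the late level in 28%. Of the 1167 genes at an unadjusted p under 0.05, it fell between in 755 (64.7%), before early in 28% and past late in 7.28%. A larger difference leaves more room between the levels, so these shares are not a test. The shares were alike for genes lower in late birds (65.1% of 590) and higher in late birds (64.3% of 577). The median position in the 1167 genes was 0.26 of the way from early to late. Over all genes it was 0.25, so a median of this size was not particular to the 1167 genes. Many differences over all genes are near 0, and single positions there ran from -1972 to 1649. In the 4 called genes the median position was 0.65.

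In ENSFALG00000004057 the birds between stood at 29.11, 28.96, 28.61, 28.48 and 28.66 log2 in the order of their hours. The bird of 3.97 hours was thus just under the lowest early bird (29.13), and those of 4.6 hours and later lay within the range of the late birds. In ENSFALG00000011294 they stood at 29.75, 29.73, 29.61, 29.29 and 29.59 log2, and in ENSFALG00000009205 at 30.20, 30.18, 29.94, 29.69 and 29.90. Both showed the same order, with the bird of 5.07 hours lowest. In ENSFALG00000010621 they stood at 31.50, 31.28, 30.93, 31.33 and 31.29 log2, and 4 of the 5 lay on the early side. With the 5 birds in the fit as a class of their own, none of the 4 genes passed for between minus early (limma adjusted p of 0.85 or more, over all genes). None passed for late minus between either (0.469 to 0.926). These 2 differences were -0.39 ± 0.09 and -0.05 ± 0.09 log2 (SE) in ENSFALG00000009205 and -0.47 ± 0.14 and -0.36 ± 0.14 in ENSFALG00000004057. They were -0.30 ± 0.09 and -0.19 ± 0.10 in ENSFALG00000011294 and -0.17 ± 0.08 and -0.28 ± 0.09 in ENSFALG00000010621. Each bird was taken at a single hour, so a change within a bird was not measured, and no hour of change was resolved.

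Among the 13 genes without overlap, the birds between lay on either side. Of the 65 values (13 genes in 5 birds), 28 were at or above the lowest early bird, 29 at or below the highest late bird and 8 in the space between the sets. The bird of 3.97 hours was on the early side in 9 genes and on the late side in 1. The bird of 4.2 hours was on the early side in 5 and the late side in 6, and the bird of 4.6 hours in 2 and 9. The birds of 5.07 and 5.2 hours were each on the early side in 6, and on the late side in 7 and 6. The counts thus did not pass evenly to the late side with the hour. Each hour is 1 bird, with no adjustment for ecotype or status. The distance between the sets was also small (median 0.04 log2). A course over the hours can therefore not be read from these counts.

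Genes of contrasting course were picked out after their values were seen. In ENSFALG00000000743 the early birds stood at 30.60 to 31.08 log2 and the late birds at 30.35 to 30.53. All 5 birds between were on the late side, at 30.17 to 30.49. The bird of 4.2 hours (30.17) lay below all late birds and the others lay within their range. With the covariates, the mean of the birds between lay past the late level, at 1.40 of the way from early to late. The difference of this gene between late and early birds was -0.34 ± 0.06 log2 (SE, limma adjusted p = 0.0967). In ENSFALG00000008040 the early birds stood at 26.36 to 26.64 log2 and the late birds at 25.48 to 26.28, and 4 of the 5 birds between were on the early side, up to 27.04. Its difference was -0.64 ± 0.13 log2 (SE, limma adjusted p = 0.15).

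The birds between were then compared with both sets in a fit of 3 hour classes to all 19 birds. No gene differed between the early birds and the birds between (0%; limma, smallest adjusted p = 0.117; 479 genes, 4.08%, at an unadjusted p under 0.05). Between these birds and the late birds, 1 gene differed (0.00853%), with 940 genes (8.02%) at an unadjusted p under 0.05. These contrasts share the 5 birds, and the difference between their counts of genes was not tested. The day of collection was not in this fit, and 3 of the 5 birds between came from 8 August, a day with 0 late birds. The gene was ENSFALG00000001869, higher in late birds by 0.65 ± 0.08 log2 (SE, limma adjusted p = 0.00452). It was also the 1 gene (0.00853%) in which the birds between departed from the midpoint of early and late, by -0.55 ± 0.07 log2 (SE, limma adjusted p = 0.0103; 566 genes, 4.83%, at an unadjusted p under 0.05).

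ENSFALG00000001869 stood at 27.58 to 28.53 log2 (median 27.77) in early birds, 27.25 to 27.92 (median 27.48) in the birds between and 27.86 to 28.51 (median 28.01) in late birds. The ranges of the 3 classes overlapped. Coastal birds had higher means than inland birds, 28.20 against 27.68 in the early and 28.19 against 27.99 in the late class. Among inland birds the ranges did not overlap: 27.58 to 27.77 in the 3 early birds, 27.25 to 27.48 in the 3 between and 27.91 to 28.04 in the 3 late birds. Among coastal birds the 2 between, at 27.72 and 27.92, overlapped the early (27.74 to 28.53) and the late birds (27.86 to 28.51). Both calls were lost with no sex term (0 genes each), and the departure from the midpoint also without the bird between taken at 4.6 hours. The gene with the smallest p-value for between minus early was ENSFALG00000003414, lower in the birds between by -0.46 ± 0.07 log2 (SE, limma adjusted p = 0.117): those 5 birds, at 29.43 to 29.67, lay below all early birds (29.87 to 30.11) and below all late birds (29.68 to 30.10). Among genes higher in the birds between it was ENSFALG00000008443, at 0.64 ± 0.14 log2 (SE, limma adjusted p = 0.648). For late minus between, the falling gene with the smallest p-value was ENSFALG00000012125, at -0.86 ± 0.16 log2 (SE, limma adjusted p = 0.239), with late birds at 24.61 to 25.76 and the birds between at 25.20 to 25.95.

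The late birds spanned enough hours to ask for a slope among them, a measure apart from the early-late difference. No gene passed (0%; limma, smallest adjusted p = 0.868; 518 genes, 4.42%, at an unadjusted p under 0.05). ENSFALG00000009854 had the smallest p-value among falling slopes, at -0.68 ± 0.13 log2 per hour (SE, limma adjusted p = 0.868), and -0.64 in males alone. In the order of their hours the late birds stood at 28.41, 28.51, 27.95, 27.83, 26.70, 27.33 and 26.67 log2; the females were the birds at 26.70 and 26.67. The early birds stood at 28.76 to 29.24 (median 28.97) and did not overlap the late birds, with a difference of -1.20 ± 0.20 log2 (SE, limma adjusted p = 0.0619). Its birds between ranged widely, from 27.23 to 28.79. Among the called genes, the slope within the late birds was -0.25 ± 0.10 log2 per hour (SE) in ENSFALG00000004057 and -0.13 ± 0.06 in ENSFALG00000009205, and 0.06 ± 0.07 and -0.09 ± 0.08 in ENSFALG00000010621 and ENSFALG00000011294 (limma adjusted p = 0.999 each).

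**Figure D4:**
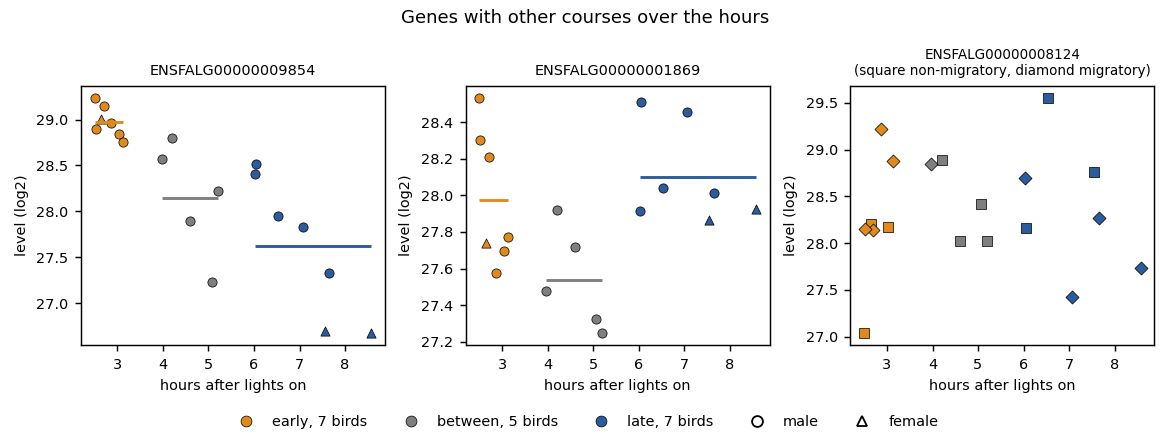
Level (log2) against hour after lights on, by bird, in 3 genes that stood out in other comparisons; colours give the hour class, and symbols the sex in the first 2 panels and the status in the last. ENSFALG00000009854 has its lowest late birds at 26.67 and 26.70, ENSFALG00000001869 is lowest in the birds between (27.25 to 27.92), and in ENSFALG00000008124 late birds have a higher mean than early birds among non-migratory birds and a lower one among migratory birds.

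The design also allowed the early-late difference to be taken in non-migratory birds (3 early, 3 late) and in migratory birds (4 early, 4 late), which share no bird. Among the non-migratory birds none passed (0%; limma, smallest adjusted p = 0.0526), while 1630 genes (13.9%) had an unadjusted p under 0.05. The migratory birds gave none either (0%; limma, smallest adjusted p = 0.678), with 516 genes (4.4%) at an unadjusted p under 0.05. These counts of genes were not compared by a test. The test of the difference between these effects also called no gene (0%; limma, smallest adjusted p = 0.0811; 888 genes, 7.57%, at an unadjusted p under 0.05). In males alone, and without early replicate 3, it called 2 genes, and without early replicate 2 or late replicate 5, 1.

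ENSFALG00000008124 had the smallest p-value in that test. In non-migratory birds its early birds stood at 27.03 to 28.20 log2 and its late birds at 28.16 to 29.56; in migratory birds the early birds stood at 28.14 to 29.22 and the late birds at 27.43 to 28.70. The plain means thus moved up in the first and down in the second, although the ranges overlapped in both. The migratory effect minus the non-migratory effect was -1.74 ± 0.24 log2 (SE, limma adjusted p = 0.0811), and -1.90 log2 in males (limma adjusted p = 0.0415). In the other direction ENSFALG00000011116 had the smallest p-value, at 1.15 ± 0.20 log2 (SE, limma adjusted p = 0.368).

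For the called genes the effects were not told apart between these sets of birds (limma adjusted p of the differences from 0.757 to 0.992). The difference of ENSFALG00000004057 was -0.85 ± 0.16 log2 (SE) in non-migratory and -0.80 ± 0.14 in migratory birds, -0.97 ± 0.15 in inland and -0.71 ± 0.13 in coastal birds, and -1.02 ± 0.15 in August and -0.66 ± 0.14 in October. Birds that do not overlap must show the same sign of the plain difference in every such set. The estimates here are adjusted for covariates, and for this gene only their sizes are read. The 95% interval of the difference between the sets was -0.41 to 0.51 for status, -0.69 to 0.17 for ecotype and -0.12 to 0.85 for month. ENSFALG00000009205, where birds did overlap, differed by -0.42 ± 0.09 log2 (SE) in non-migratory and -0.43 ± 0.08 in migratory birds, and by -0.47 ± 0.09 in inland and -0.39 ± 0.08 in coastal birds. ENSFALG00000004634 differed by 0.63 ± 0.12 log2 (SE) in inland and 0.42 ± 0.10 in coastal birds, and ENSFALG00000004539 by 0.79 ± 0.26 and 1.39 ± 0.24.

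**Figure D5:**
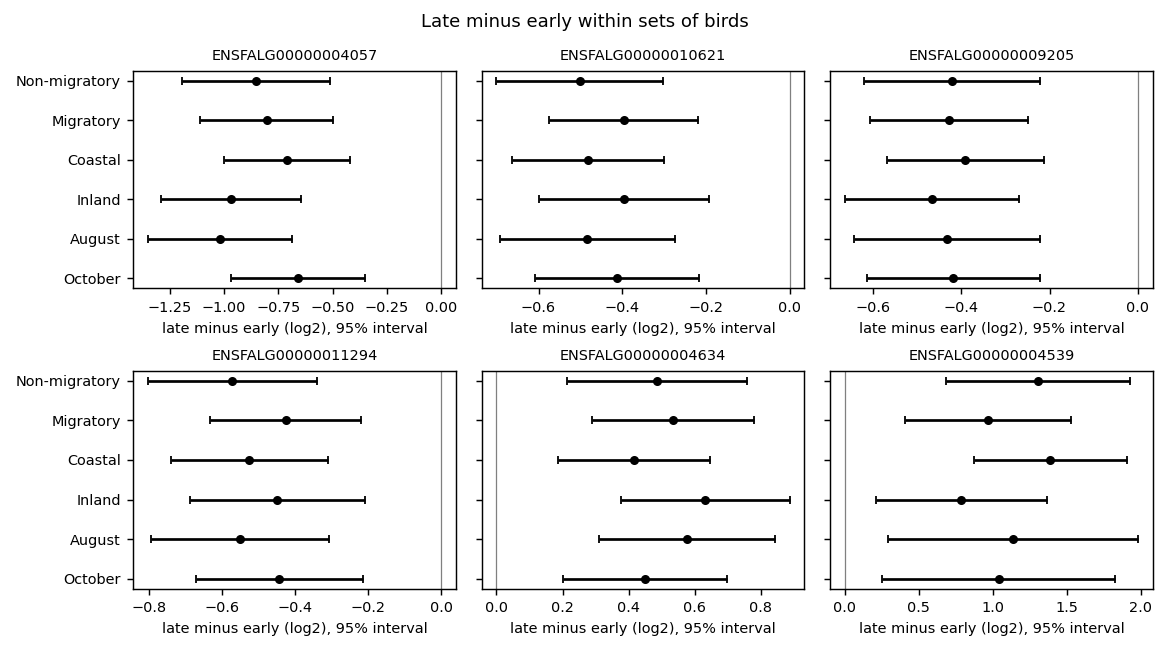
Late minus early difference (log2, horizontal axis) with its 95% interval in non-migratory, migratory, coastal, inland, August and October birds, for the 6 genes of the plot of levels by hour. In ENSFALG00000004057 the estimates run from -1.02 in August to -0.66 in October, and every interval plotted for the 6 genes stays on 1 side of 0, as the choice of these genes favours.

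Between ecotypes, the early-late difference called no gene in coastal birds (0%; limma, smallest adjusted p = 0.108; 909 genes, 7.75%, at an unadjusted p under 0.05) and none in inland birds (0%; smallest adjusted p = 0.195; 864 genes, 7.37%). The test of the difference between these effects called no gene (0%; limma, smallest adjusted p = 0.964; 595 genes, 5.07%, at an unadjusted p under 0.05). It was not precise: its 95% interval lay within ± 0.5 log2 in 41.7% of genes and within ± 1 log2 in 84.1%. The test between statuses was no more precise (40.9% and 83.3%), nor was the test between months given below (30.1% and 77.5%).

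Status followed the month in all but 2 birds, late replicates 3 and 5, so August (3 early, 3 late) and October birds (4 early, 4 late) were compared as well, with the month in place of status. August gave no called gene (0%; limma, smallest adjusted p = 0.152) and 1550 genes (13.2%) at an unadjusted p under 0.05. October gave none (0%; smallest adjusted p = 0.281) and 483 (4.12%). Here too the counts of genes were not compared by a test. All 3 late birds of August were taken on 7 August, and 2 of its 3 early birds on 8 August. The test of the difference between the effects in August and October called none (0%; limma, smallest adjusted p = 0.112; 818 genes, 6.98%, at an unadjusted p under 0.05). Its smallest p-value was that of ENSFALG00000005451. In August its early birds stood at 26.61 to 27.20 log2 and its late birds at 25.87 to 26.45. In October the order was turned, with early birds at 25.79 to 26.22 and late birds at 26.66 to 27.24. In neither month did the sets overlap, and the October effect exceeded the August effect by 2.06 ± 0.28 log2 (SE, limma adjusted p = 0.112, or 0.648 in males).

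As the sets of each split share no bird, genes can be picked in one set and read in the other. With so few birds in a set, many genes separate completely by chance. How many genes were picked is therefore not a result, and only the shares read in the other set are compared. Across the 11727 genes, which are not independent of each other, the plain early-late differences had a Pearson correlation of 0.19 between coastal and inland birds, 0.10 between non-migratory and migratory birds and -0.05 between August and October. In males alone these were 0.31, 0.20 and 0.15. The August set held 1 early female and the October set 2 late females, so sex enters the plain differences of the 2 months in opposite directions. Late replicate 3 was migratory in August and late replicate 5 non-migratory in October, so status does so too. In the split by status, the month likewise enters in opposite directions. In the split by ecotype, each ecotype held an early bird but no late bird from 8 August. That day therefore enters the differences of both ecotypes in the same direction, and its part in their agreement was not tested. Of 675 genes in which the inland late birds all lay below the inland early birds, 408 (60.4%) were lower in late birds among coastal birds, against 48.3% of all genes. Of 156 such genes in coastal birds, 101 (64.7%) were lower in inland birds, against 48.7% of all genes. Of 89 such genes in migratory birds, 62 (69.7%) were lower in non-migratory birds, against 49.7% of all genes, but of 843 picked in non-migratory birds 57.3% were lower in migratory birds, against 48.7%. For genes picked as higher in late birds the shares were 56.2% of 692 (inland, read in coastal birds) against 51.7% of all genes, and 60.7% of 196 (coastal, read in inland birds) against 51.2%. They were 56.5% of 108 (migratory, read in non-migratory birds) against 50.3%, and 56.5% of 908 (non-migratory, read in migratory birds) against 51.3%. Between months the shares stayed near those of all genes: 48.1% of 1176 genes picked as lower in August were lower in October, against 47.5%, and 49.5% of 101 picked in October were lower in August, against 48.9%. Genes picked as higher gave 52.3% of 1111 against 52.5%, and 50.4% of 121 against 51.1%.

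With the hour as a slope over all 19 birds in place of the classes, 9 genes were called (0.0767%; 9.58% at an unadjusted p under 0.05), 3 higher and 6 lower with the hour. They included all 4 genes called between early and late, which are 44.4% of the 9. Over the 14 early and late birds the slope called 5 genes (0.0426%; 9.94% at an unadjusted p under 0.05), and 3 of the 4 were among them. These fits use the same birds, so the overlap is no second line of evidence.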

How the data were processed

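RNA was sequenced from the hypothalamus and optic chiasma of 19 birds, each a separate animal. Per the labels' protocols, the library kit was TruSeq RNA, which does not mark strand. Trim Galore 0.3.1, TopHat2 and HTSeq are named, per the submitters' processing notes, without their roles. Neither build nor annotation is given in the sources used here. A single table was deposited by the authors, of values read as log2 (no base is stated, and every fold rests on this reading) for 11727 genes, between 20.38 and 35.98, named, per the table's title, as TMM-normalized counts summed over exons of protein-coding genes. The columns look quantile normalized, so depth is unknown and counting error cannot be given. The values were tested as deposited, with no pseudocount and no filter.

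Birds were classed by the labelled hour alone. limma 3.58.1 in R 4.3.3 (trend and robust settings) fitted hour class, ecotype, status and sex to the 14 early and late birds, and 3 classes to all 19; interactions with status, ecotype and month, and a slope within late birds, used the same 14. Each comparison's p-values, all two-sided, were adjusted over the 11727 genes (Benjamini-Hochberg). Errors are SE of the fit or SD between birds, as marked. The procedure was tested on simulated data. The identifiers carry the Ensembl prefix of the collared flycatcher and none matched the 19631 RefSeq genes of the thrush assembly bCatUst1.pri.v2 (0 matched), so the planned gene lists and markers were not tested. Named genes are those with the smallest p-values in each direction; all 4 called genes were named, as their count is small, and others are marked as picked after their values were seen. The comparison, the lists and the rule for named genes were chosen with earlier results of these data known. Alternatives covered covariates, hour limits, normalization, low levels, test settings and each bird left out. The plan allowed for linear values; a change of pseudocount had no use on a log scale and was not run.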

Additional observations from a re-analysis of the deposited data

Results flagged for a closer look

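The lowest early bird of ENSFALG00000004548 lay far from the other early birds: early replicate 3, the early female, stood at 27.002 log2 and the next early bird at 27.723. This gene had the smallest p-value among genes whose late minus early difference in inland birds exceeded that in coastal birds (by 0.85 ± 0.17 log2, SE, limma adjusted p = 0.964). It was the only such bird in 63 tests of an hour class on a named gene or a principal component, where chance gives about 1 in 20, or 3.15.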

How the results depend on the processing

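The 4 early-late calls became 1 with the month added, 0 with the day of collection in place of status, 0 in males only, 1 without the 2 birds whose status differs from their month, 12 with all 19 birds split at 4.5 hours, 9 with a slope over all 19 birds, 0 with no trend and robust settings, 7 with birds weighted by their fit, and 0 without late replicates 1 and 4 (chosen after seeing the data). Leaving out 1 bird gave 0 to 5. The other settings gave 3 to 5 calls, not always the same genes or direction: late from 7 hours gave 2 higher and 2 lower, 3 hour classes 1 higher and 3 lower (ENSFALG00000009205 lost, limma adjusted p = 0.0533), and the month in place of status 1 higher and 4 lower. Genes without overlap, 13 lower and 0 higher, became 49 and 42 with adjusted values, a fit in the same birds that favours separation. They became 57 and 18 in males and 22 and 9 without late replicates 1 and 4. Leaving out 1 bird gave 14 to 23 and 0 to 11. With fewer birds these counts could not fall, and chance separates more genes, so they are not read as an excess. Centring each bird gave 11 and 1. Between minus early gave 1 gene with the month in place of status and 0 to 0 with 1 of the 5 birds between left out (early and late birds were not left out of these contrasts); late minus between gave 0 genes with no sex term and 1 to 1 with 1 of those 5 left out; the departure from the midpoint gave 0 with no sex term, 2 with the month in place of status and 0 to 1 with 1 of those 5 left out. The interactions gave 2 genes for status in males and, with 1 bird left out, 0 to 2 for status, 0 to 1 for ecotype and 0 to 2 for month; the slope in late birds gave 0 to 0 with 1 late bird left out. No named gene changed direction in these settings. Causes were not tested. No paired analysis was possible because the labels give no replicate numbers shared between the groups. Depth is unknown, so what it limits could not be stated.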

Other observations

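The larger early-late differences were more often lower in late birds. Of the 11727 genes, 164 were lower and 96 higher in late birds at a size over 0.5 log2, and 27 were lower and 11 higher at a size over 1 log2. This lean was not tested. Of these 27 lower genes, 15 had an unadjusted p under 0.05 in limma, and of the 11 higher genes 4 had, against 9.95% of all genes. They were picked by the size of the same difference, so these counts only describe them. Among genes above the median level, 9 genes were lower by more than 1 log2 and 0 were higher. The median size of the difference was 0.13 log2 in the 2932 genes with the lowest levels and 0.06 log2 in the 2932 with the highest. ENSFALG00000009541, picked after its values were seen, had the largest difference, -2.53 ± 0.89 log2 (SE, limma adjusted p = 0.411): its early birds stood at 28.55 to 30.00 log2 and its late birds at 23.90 to 30.42, a range that took in all early birds.

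The late birds varied slightly more than the early birds. The SD between birds had a median over genes of 0.19 log2 in the 7 late birds and 0.18 log2 in the 7 early birds, and was larger in late birds in 6491 genes (55.4%), or 52.7% in males. The late birds also covered the wider span of hours and held 2 of the 3 females; the part of either in this spread was not tested.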
